A study of Saccharomyces cerevisiae with 10 samples.

Results

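The genes of NuA4, the histone acetyltransferase of which Swc4 is itself a subunit, were examined for Swc4 peaks in budding yeast (Saccharomyces cerevisiae). The 10 genes were chosen by name from the subunits of the complex (EAF1, EPL1, ESA1, YNG2, EAF3, EAF5, EAF6, EAF7, TRA1 and ARP4), out of 6002 nuclear protein-coding genes in the gene table. Every peak that overlapped the body of such a gene or the 500 bp upstream of its start was taken, which gave 20 peaks in 4 lists. Chromatin immunoprecipitation and sequencing (ChIP-seq) used an antibody against c-Myc in strains whose Swc4 carried 13 copies of the Myc tag. The strains were yaf9d, which lacks a subunit common to NuA4 and SWR1; eaf1d, which lacks the scaffold of NuA4; swr1d, which lacks the ATPase of SWR1; and wild type (WT). A further wild type had no tag, and no peak list of it was analysed here. Each group had 2 repeats, grown in 50 ml of YPD, a rich medium, at 30 °C to an OD600 of about 0.6. All 4 tagged groups carry SWC4-13MYC, the mutants in addition to their deletion.

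NuA4 acetylates the tails of histones in nucleosomes, and it is the essential acetyltransferase complex of this yeast. Esa1 is its catalytic subunit and works in a small module with Epl1, Yng2 and Eaf6. Eaf3, Eaf5 and Eaf7 form a second module, Tra1 is the large subunit that transcription activators contact, and Eaf1 holds the modules together. Arp4, actin, Yaf9 and Swc4 also belong to SWR1, a remodeller that exchanges histone H2A for the variant H2A.Z.

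The lists held 4590 peaks in yaf9d, 2937 in eaf1d, 1262 in swr1d and 625 in WT. Each list pools both repeats of its genotype, so no spread between repeats could be measured and genotypes were not tested against each other. The pileup is the number of fragments over the summit, and the authors' fold enrichment divides it by the local background. Its median over the list was 1.88 in yaf9d, 1.85 in eaf1d, 1.68 in swr1d and 1.67 in WT. The −log10 q at the summit is the authors' significance after adjustment, and ranks below are by that value within a list. Folds and ranks describe a peak within its own list and are not compared between lists. The depth per library is unknown. The pileup and background were recovered from fold and −log10 p, and at the member peaks the pileup ranged from 110 to 553 fragments in yaf9d, 191 to 584 in eaf1d, 100 to 532 in swr1d and 154 to 712 in WT. Intervals beside folds are exact 95% Poisson intervals of the pileup over a fixed background. They cover counting error only, and a summit is by definition the highest point of its peak.

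Swc4 peaks lay at 7 of the 10 NuA4 genes in yaf9d, 3 in eaf1d, 4 in swr1d and 3 in WT. Of all protein-coding genes, 64.2% had a peak by the same rule in yaf9d, 51.6% in eaf1d, 26.3% in swr1d and 16.6% in WT. The yaf9d count of 7 was near the share of all genes in that list. In eaf1d the members' share of 30.0% was below that of all genes by a few genes, with EAF1, deleted in that strain, counted among the 10. In swr1d (40.0%) and WT (30.0%) the members' share was above, each by little more than a single gene among 10. EPL1 and EAF5 had a peak in all 4 lists, where 9.05% of all genes did. EAF3 had one in yaf9d, eaf1d and WT, EAF1 and ARP4 in yaf9d and swr1d, and YNG2 and TRA1 in yaf9d alone. ESA1, EAF6 and EAF7 had none in any list, as did 31.7% of all genes. These positions relative to all genes depended on the threshold. With peaks of fold at least 2 the members with a peak numbered 2 in yaf9d, 1 in eaf1d, and 0 in swr1d and in WT, while the shares of all genes were 31.4%, 22.7%, 11.0% and 4.93% in that order, so that no list had the members above all genes. With lists cut to the 625 peaks of highest −log10 q they numbered 2 in yaf9d, 1 in eaf1d, 2 in swr1d and 3 in WT, and the shares of all genes were 13.9%, 14.0%, 14.2% and 16.6%. In yaf9d, eaf1d and swr1d the count among the 10 members then lay within a single gene of that share.

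**Figure D1:**
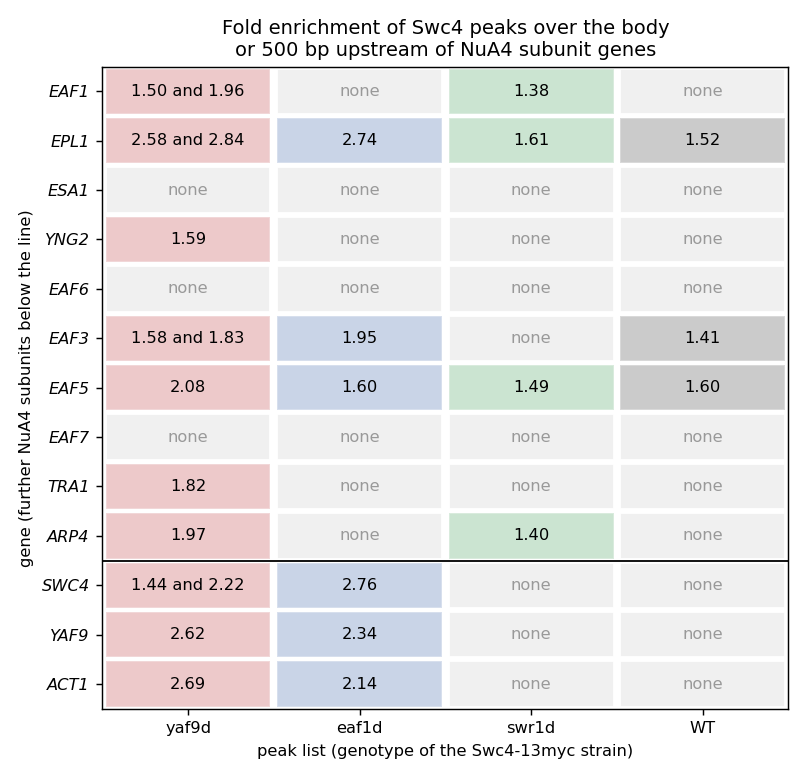
Fold enrichment of each Swc4 peak at the 10 NuA4 genes and, below the line, at 3 further subunit genes (rows), in the 4 peak lists (columns); "none" means that no peak overlapped the body or the 500 bp upstream. EPL1 and EAF5 have a value in all 4 columns, and ESA1, EAF6 and EAF7 have none.

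EPL1 (YFL024C, chromosome VI, body of 2499 bp) encodes the homologue of Enhancer of Polycomb that anchors the catalytic module to the rest of the complex, and it carried the highest folds among the members in yaf9d, eaf1d and swr1d. Its peaks fell in 2 places. Around the start lay a peak in yaf9d (chrVI:90022-90897, fold 2.84, interval 2.54 to 3.15, rank 339 of 4590), in swr1d (chrVI:90160-90887, fold 1.61, 1.45 to 1.78, rank 526 of 1262) and in WT (chrVI:90136-90897, fold 1.52, 1.37 to 1.68, rank 329 of 625). The summits in swr1d and WT were 5 bp apart, 83 and 78 bp inside the gene. The yaf9d summit was 389 bp upstream of the start, within the shared upstream region of the divergent gene BUD27 and 467 bp from the WT summit, although the yaf9d peak covered the whole of the WT peak.

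The other place at EPL1 was the interior of the gene. There yaf9d had a peak at chrVI:88869-89252 (fold 2.58, interval 2.23 to 2.97, rank 763) and eaf1d at chrVI:88840-89273 (fold 2.74, 2.41 to 3.09, rank 258 of 2937). Their summits were 8 bp apart, 1274 and 1282 bp into the gene. Neither swr1d nor WT had a peak there. The eaf1d list in turn had no peak at the start of EPL1, so its EPL1 peak and the WT peak did not overlap. Behind the eaf1d summit stood 260 fragments over a local background of 94.4, and behind the WT summit 392 over 257.

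**Figure D2:**
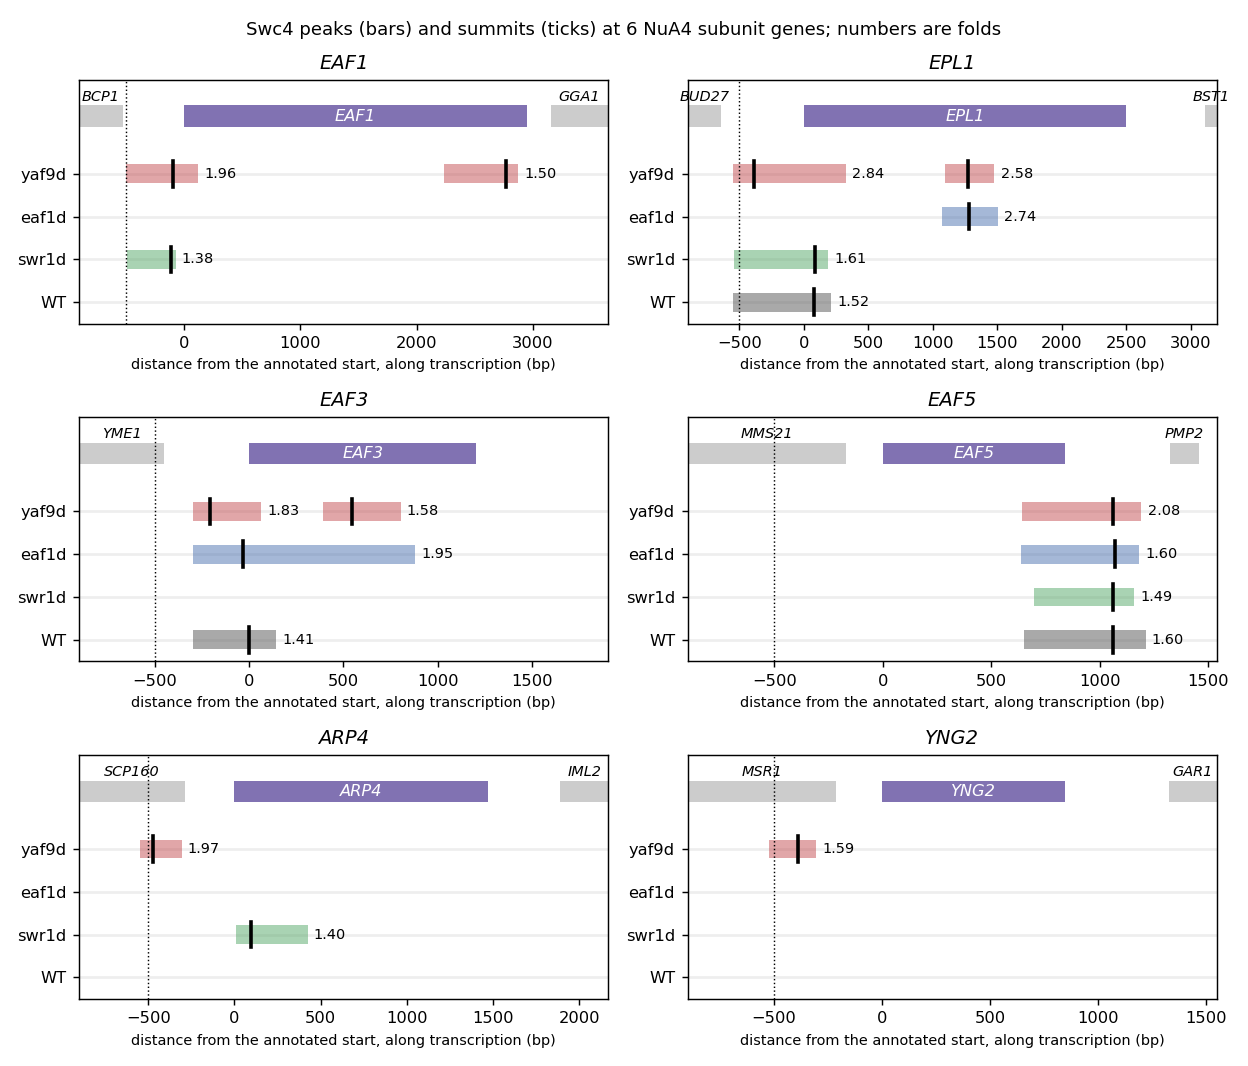
Peaks (bars) and summits (ticks) in the 4 lists at EAF1, EPL1, EAF3, EAF5, ARP4 and YNG2, by distance from the annotated start along transcription in bp; purple boxes are the genes, grey boxes their neighbours, the dotted line marks 500 bp upstream, and numbers are folds. The EAF5 summits line up past the end of the gene in all 4 lists, while the EPL1 peaks lie at the start in yaf9d, swr1d and WT and in the interior in yaf9d and eaf1d.

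The other genes of the catalytic module had few peaks or none. YNG2 (YHR090C, chromosome VIII, 849 bp), whose product is a member of the ING family and stimulates Esa1, had a peak in yaf9d (chrVIII:284933-285151, fold 1.59, interval 1.32 to 1.89, rank 4105). Its summit was 389 bp upstream of YNG2 and inside the body of the tandem neighbour MSR1. ESA1 (YOR244W, chromosome XV, 1338 bp), the acetyltransferase itself, had no peak in its window. The nearest peak was 1650 bp beyond the window on the upstream side in yaf9d (chrXV:790185-790381, fold 1.95, summit in PUS7). On the downstream side, where the window ends with the gene, it was 1966 bp away in eaf1d (chrXV:795834-797329, fold 5.72). In swr1d it was 2824 bp away on that side (chrXV:796692-797340, fold 11.20) and in WT 2732 bp (chrXV:796600-797335, fold 4.32). Those 3 downstream peaks overlapped each other and lay beyond the convergent neighbour DGA1.

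EAF6 (YJR082C, chromosome X, 342 bp), a subunit that also occurs in the NuA3 acetyltransferase, fell just outside the rule. A peak lay 40 bp beyond its window in yaf9d (chrX:582795-582999, fold 1.96), 27 bp beyond it in eaf1d (chrX:582782-583553, fold 2.39) and 45 bp beyond it in WT (chrX:582800-583467, fold 1.49). Each had its summit in the body of ACF4, the tandem gene upstream. The nearest swr1d peak was 3251 bp away. With 1000 bp upstream in place of 500, EAF6 would count in yaf9d, eaf1d and WT. Just inside the rule were the yaf9d peaks at ARP4, with a summit 474 bp upstream, and at YNG2.

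In the module of EAF3, EAF5 and EAF7, EAF3 and EAF5 had peaks. EAF3 (YPR023C, chromosome XVI, 1206 bp) encodes a chromodomain protein that is also part of the histone deacetylase complex Rpd3S. Its peak at the start was at chrXVI:609969-610326 in yaf9d (fold 1.83, interval 1.51 to 2.20, rank 3484), at chrXVI:609152-610331 in eaf1d (fold 1.95, 1.69 to 2.25, rank 1312) and at chrXVI:609889-610330 in WT (fold 1.41, 1.20 to 1.65, rank 545). The WT summit was 2 bp inside the annotated start. The eaf1d summit was 30 bp upstream of it and the yaf9d summit 208 bp upstream, in the region between EAF3 and the divergent gene YME1. The eaf1d peak was 1180 bp wide and also covered the site of a separate interior peak in yaf9d (chrXVI:609228-609641, fold 1.58, rank 4158). The right borders of the 3 peaks at the start lay between 610326 and 610331. In swr1d the nearest peak was 173 bp beyond the window, with its summit in YME1 (chrXVI:610704-611080, fold 1.42).

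EAF5 (YEL018W, chromosome V, 840 bp) had a peak in every list with the summit in nearly the same place, past the end of the gene. It was at chrV:122115-122663 in yaf9d (fold 2.08, interval 1.91 to 2.26, rank 398), chrV:122109-122653 in eaf1d (fold 1.60, 1.47 to 1.74, rank 674), chrV:122169-122629 in swr1d (fold 1.49, 1.37 to 1.63, rank 518) and chrV:122123-122683 in WT (fold 1.60, 1.49 to 1.72, rank 172). The 4 summits spanned 10 bp, and they lay 221 to 231 bp beyond the end of EAF5, in the 487 bp between it and the convergent gene PMP2, which encodes a small membrane protein. Only 142 to 202 bp of each peak were inside the EAF5 window, and with the summit required to be in the window EAF5 had no peak in any list. The pileup there was the highest of all member peaks in each list, with 553 fragments in yaf9d, 584 in eaf1d, 532 in swr1d and 712 in WT. The local background was high as well, at 266, 364, 356 and 445 fragments in the same order, against list medians of 84.1, 108, 109 and 133. The part of this background in the result was not tested.

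EAF7 (YNL136W, chromosome XIV, 1278 bp), the third gene of that module, had no peak in its window. The nearest ones lay in the convergent neighbour FPR1, 255 bp from the window in yaf9d (chrXIV:371900-372206, fold 1.92) and 276 bp in eaf1d (chrXIV:371921-372236, fold 1.95). In swr1d and WT the nearest peak was 1399 and 14158 bp from the window.

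EAF1 (YDR359C, chromosome IV, 2949 bp), the scaffold gene, is the gene deleted in eaf1d. No eaf1d peak lay over its body or upstream region, and the nearest one was 5648 bp away. Upstream of EAF1 there was a peak in yaf9d (chrIV:1194762-1195383, fold 1.96, interval 1.72 to 2.22, rank 1254) and in swr1d (chrIV:1194958-1195374, fold 1.38, 1.20 to 1.58, rank 984). Their summits were 12 bp apart, 97 and 109 bp upstream of the start. A weaker yaf9d peak lay in the last part of the gene (chrIV:1192013-1192646, fold 1.50, rank 4141). WT had none, and its nearest peak was 1343 bp away, with the summit in GGA1. The extent of the deletion is unknown here, so an absent eaf1d peak within the gene does not bear on binding there. Without EAF1, 3 of 9 members had a peak in eaf1d. In the other deletion strains the body of the deleted gene also held no peak summit, but the body of YAF9 held none in any list. The extent of those deletions is unknown here too, so these absences do not bear on binding either. At YAF9 the yaf9d peak (chrXIV:419589-419905, fold 2.62) ended before the start of the gene and had its summit in the neighbour YNL108C, and at SWR1 no swr1d peak overlapped the body or upstream region. The nearest swr1d peak (chrIV:1140477-1140809, fold 2.02) began 1 bp past the end of SWR1.

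TRA1 (YHR099W, chromosome VIII), which encodes the activator-binding subunit that NuA4 has in common with the SAGA complex, is with 11235 bp number 3 in length among the 6002 genes. It had a single peak, in yaf9d, at its very end (chrVIII:313814-314018, fold 1.82, interval 1.51 to 2.17, rank 3369), with the summit 84 bp before the annotated end. Peaks covered 1.55% of its window in yaf9d and none of it in eaf1d, swr1d and WT, while 19.6% of the summed windows of all genes was covered in yaf9d, 15.0% in eaf1d, 5.10% in swr1d and 3.66% in WT. Of the 117 genes with a body of at least 5000 bp, a class set after the values were seen, 61.5% had a peak in yaf9d, 48.7% in eaf1d, 30.8% in swr1d and 15.4% in WT. TRA1 makes up 11735 of the 29006 bp of the members' windows. Peaks covered 13.8% of these windows in yaf9d, 6.26% in eaf1d, 5.72% in swr1d and 4.62% in WT. Without TRA1 the covered share was 22.1% in yaf9d, 10.5% in eaf1d, 9.61% in swr1d and 7.76% in WT. Among members with a yaf9d peak, TRA1 had the smallest covered share, so leaving it out raises the members' share. The shares of all genes above keep their long genes and are no like comparison for the shares without TRA1. The eaf1d shares with and without TRA1 count the 3449 bp window of EAF1, deleted in that strain, as uncovered.

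ARP4 (YJL081C, chromosome X, 1470 bp) encodes an actin-related protein of NuA4, SWR1 and INO80. It had a peak in yaf9d (chrX:285578-285817, fold 1.97, interval 1.68 to 2.30, rank 2013) whose summit was in the body of the upstream neighbour SCP160. In swr1d it had a peak just inside the gene (chrX:284848-285262, fold 1.40, 1.14 to 1.70, rank 1171 of 1262), with the summit 96 bp from the start. The 2 peaks did not overlap, and no eaf1d or WT peak was nearer to the ARP4 window than 3113 and 28432 bp.

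The members' folds were set beside the median fold of each list. In yaf9d the 10 member peaks had folds of 1.50 to 2.84 with a median of 1.90, and 5 of them were above the median of the list. In eaf1d the 3 peaks had folds of 1.60 to 2.74, and 2 were above the median of the list. In swr1d the 4 peaks had 1.38 to 1.61 and in WT the 3 peaks had 1.41 to 1.60, all below the medians of their lists. By counting intervals the start peak of EPL1 in yaf9d stood apart from EAF5 and all peaks below it, and the EPL1 peak in eaf1d stood apart from EAF3 (1.69 to 2.25) and EAF5. All other neighbours in the order of folds had intervals that overlapped, in each of the 4 lists.

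**Figure D3:**
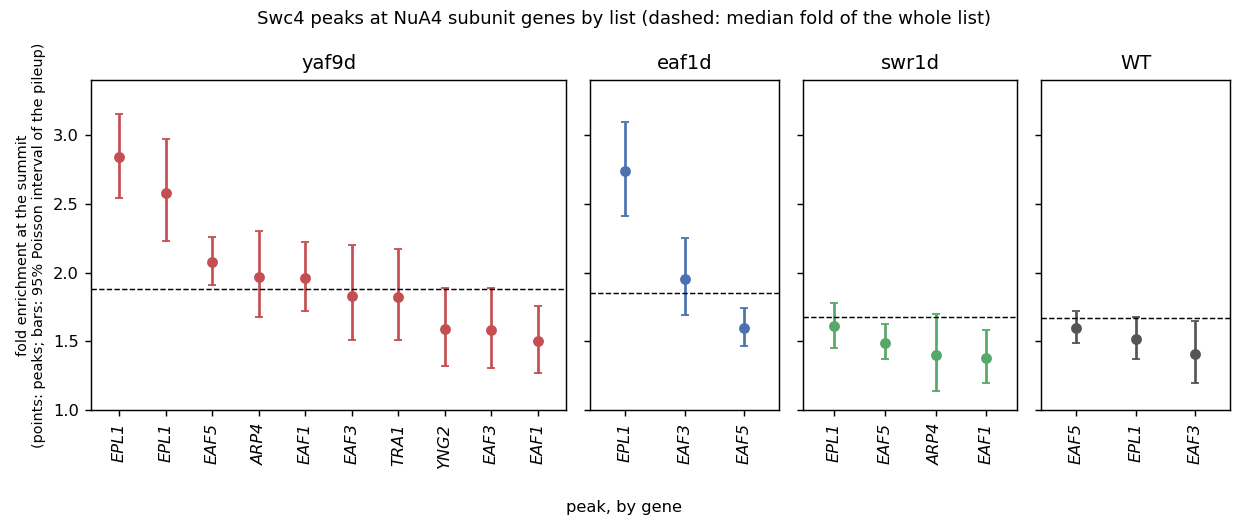
Fold enrichment at the summit of each member peak (points) with the 95% Poisson interval of its pileup (bars), by list and in falling order; the dashed line is the median fold of the whole list. All 4 swr1d and all 3 WT points lie below their line, and the EPL1 points lead yaf9d and eaf1d.

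Of the 20 member peaks, 7 had the summit upstream of the start, 4 in the first 500 bp of the gene, 3 in the interior, 2 in the last 500 bp and 4 past the end, the last all at EAF5. By list, the summit was upstream for 5 of 10 member peaks in yaf9d, 1 of 3 in eaf1d, 1 of 4 in swr1d and 0 of 3 in WT. Over all pairs of a gene and a peak it was upstream in 32.7%, 36.5%, 51.5% and 54.1%, in the same order. The 3 interior summits were at EPL1 in yaf9d and eaf1d and at EAF3 in yaf9d. Over all pairs, 16.7% of summits were interior in yaf9d, 11.7% in eaf1d, 7.26% in swr1d and 1.53% in WT. Past the end lay 3.28%, 4.02%, 6.36% and 7.94% of them, where the members had the EAF5 summit in each list. No member summit lay nearer than 4496 bp to an annotated RNA gene, so none of these peaks was at a tRNA gene. The 3 WT member peaks, at EPL1, EAF3 and EAF5, had a counterpart that overlapped by at least 1 bp at 3 sites in yaf9d, 2 in eaf1d (EAF3 and EAF5) and 2 in swr1d (EPL1 and EAF5). Of all 625 WT peaks, 96.8% had one in yaf9d, 74.7% in eaf1d and 65.0% in swr1d.

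The 3 further subunit genes of NuA4 had peaks in yaf9d and eaf1d and in neither of the other lists, a pattern that 21.1% of all genes had. At SWC4, whose product carries the tag, the summit near the start was 100 bp into the gene in yaf9d (chrVII:499663-499906, fold 2.22, rank 1571) and 107 bp in eaf1d (chrVII:499654-499967, fold 2.76, rank 284). Each of these summits was also in the 500 bp upstream of CUL3. A weaker yaf9d peak lay further inside SWC4 (chrVII:498653-499048, fold 1.44). At YAF9 the eaf1d peak (chrXIV:419593-419861, fold 2.34) was at the place of the yaf9d peak in YNL108C. ACT1, the actin gene, was covered over 61.4% of its window in yaf9d (chrVI:53286-54475, fold 2.69, rank 214) and 59.7% in eaf1d (chrVI:53295-54450, fold 2.14, rank 155). In the other lists ACT1 fell just outside the rule. The nearest peak was 63 bp beyond its window in swr1d (chrVI:55259-55845, fold 1.52) and 130 bp beyond it in WT (chrVI:55326-55956, fold 1.28). Each was on the upstream side, with its summit in YPT1.

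Genes of complexes that have subunits in common with NuA4 were counted by the same rule. By that rule 64.2% of all genes had a peak in yaf9d, 51.6% in eaf1d, 26.3% in swr1d and 16.6% in WT. SAGA, the acetyltransferase complex that also contains Tra1, had a peak at 15 of 18 genes in yaf9d, 15 in eaf1d, 4 in swr1d and 4 in WT. INO80, a remodeller with Arp4 and actin, had one at 11 of 13 genes in yaf9d, 10 in eaf1d, 2 in swr1d and 1 in WT. Rpd3S, with Eaf3, had one at 3 of 4 genes in yaf9d, 3 in eaf1d, 0 in swr1d and 1 in WT (RCO1, fold 1.99). Of 6 genes for catalytic subunits of other histone acetyltransferases, 3 had a peak in yaf9d (RTT109, fold 2.06, GCN5, 2.01, and ELP3, 1.86) and 0 in each other list. The counts for these complexes leave out the shared subunits TRA1, ARP4, ACT1 and EAF3. GCN5 is counted both in SAGA and among these 6. By fold, the leading peaks at these partner genes were at SPT7 in yaf9d (6.52) and at SPT8 in eaf1d (4.15), swr1d (5.35) and WT (2.24). Each had its summit upstream of the start, and the neighbouring genes and RNA genes at these peaks are not given here. In eaf1d, peaks were thus found at 3 of 10 members, at 3 of 3 further NuA4 subunit genes and so at 6 of all 13 (46.2%). In that list 51.6% of all genes had a peak. EAF1, deleted in this strain, is counted in the 10 and the 13, and its absent peak does not bear on binding there. No test of the difference from SAGA was made.

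**Figure D4:**
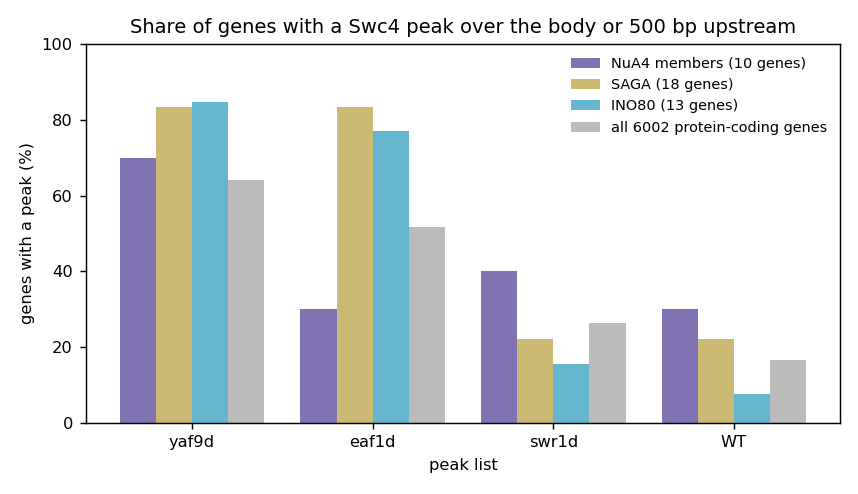
Percent of genes with a Swc4 peak over the body or 500 bp upstream (vertical axis from 0) in each peak list, for the 10 NuA4 members, 18 SAGA genes, 13 INO80 genes and all 6002 protein-coding genes. In eaf1d the NuA4 bar (30.0%, with the deleted EAF1 counted) is below the bar of all genes (51.6%). In swr1d and WT it is above by little more than a single gene among 10.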

How the data were processed

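Per the submitters' processing notes, the tools were fastp 0.21.0, BWA 0.7.15-r1140, SAMtools 1.4 and MACS2. Per the labels, each deposited list integrates both repeats of a genotype. The sources used here give neither the genome build nor the control and settings of the peak calls, and the depth per sample is unknown. The deposited lists give each peak's summit with its fold ratio over local background, its −log10 p and its −log10 q, and all 3 are the authors' values.

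Genes came from the RefSeq table of assembly R64, with strand read from systematic names. It was set against the peaks at 275 tRNA genes. A summit lay within 60 bp of the middle of 114 of them in yaf9d, 76 in eaf1d, 112 in swr1d and 34 in WT, against 0 to 16 when summits were shifted by 100 to 1000 bp. Distances to genes rest on that table, and peak coordinates are those of the lists, written 1-based. A peak was at a gene when at least 1 bp overlapped the body or 500 bp upstream. Pileup was solved from fold and −log10 p (up to 250) with the Poisson formula of MACS2. It came out whole within 0.05 at 97.9% to 99.8% of solved summits. The solver and the overlap rule were tested on simulated data. Python 3.11.15, pandas 2.3.3 and scipy 1.17.1 were used.

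The members, the gene lists and the rule for named genes (all members, the 3 further subunits, deleted genes, neighbours that hold a summit, and the leading genes of the partner lists) were chosen with earlier results of these data known. Promoter sequences and motifs were not used here.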

Additional observations from a re-analysis of the deposited data

How the results depend on the processing

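Of 67 recomputed counts, 48 stayed within 1.5 times the value reported. Counts below are members with a peak, each with the share of all genes in brackets, unless WT peaks with a counterpart are named. With fold at least 2 they were 2 in yaf9d (31.4%), 1 in eaf1d (22.7%), 0 in swr1d (11.0%), 0 in WT (4.93%) and 0 in all 4 lists (2.43%), and no WT peak was left to match. At equal list length they were 2 in yaf9d (13.9%), 1 in eaf1d (14.0%), 2 in swr1d (14.2%) and 1 in all 4 lists (3.25%), and 0 WT peaks had a counterpart in eaf1d. With −log10 q at least 5, swr1d had 2 (19.2%), and 1 of 2 WT peaks had a counterpart in eaf1d. With the 500 bp upstream alone, eaf1d had 1 (35.2%), swr1d had 2 (17.7%) and all 4 lists had 0 (6.21%). With 1000 bp upstream, eaf1d had 5 (58.6%). With the summit in the window all 4 lists had 1 (4.33%), and with at least 50% of the peak in it also 1 (4.20%). With summits at most 100 bp apart, 1 WT peak had a counterpart in yaf9d. Without EAF1, or with 500 bp downstream (both added after seeing the data), counts stayed within 1.5 times. Fewer peaks or a smaller window lower such counts by construction.

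No paired analysis was possible because each list pools both repeats, which also precludes leaving out a repeat. Unspecific signal was not measured, since untagged samples were not analysed here. Peaks below a −log10 q of 1.31 are in none of the lists, so weaker binding was not detectable.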

Other observations

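At the start of SWR1, itself no NuA4 gene, eaf1d had a peak at chrIV:1135708-1136120 with a fold of 2.19 (rank 1317 of 2937) and WT had one at chrIV:1135665-1136338 with a fold of 3.24 (rank 125 of 625). Their summits lay 52 bp upstream of the start in eaf1d and 30 bp upstream in WT. Each of these summits was also in the 500 bp upstream of RQC1. The fold at SWR1 in WT was above that of every WT peak at a NuA4 gene (1.41 to 1.60). In yaf9d the peaks at SWR1 were in the interior (fold 1.62) and past the end of the gene (fold 2.09). The summit past the end was in the 500 bp upstream of MSN5.

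The windows of ESA1 and EAF7 had no peak in any list with the body and 1000 bp upstream either. With 500 bp downstream added, EAF7 had a peak in yaf9d and eaf1d, in FPR1, and YNG2 gained one in WT, in GAR1 (chrVIII:282711-283392, fold 1.96), which encodes a protein of snoRNA particles.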
